A study of Mus musculus with 6 samples.

Results

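The genes described here are 10 secreted ligands and receptors through which blood vessels and neural cells of the adult brain can signal to each other: Cxcl12 with its receptors Cxcr4 and Ackr3, Kitl, Bdnf, Ntf3, Serpinf1, the endothelins Edn1 and Edn3, and the endothelin receptor Ednrb. They were taken by symbol from the 32285 genes of the deposited count tables, and all 10 were found. Single-cell RNA was measured in 6 mouse libraries, 2 per group, which the labels call biological replicates. The control mice carried floxed Cx43 alleles (Cx43flox/flox) and the other groups are labelled Cx43GlastiKO and Cx43ECiKO, names given here as GlastiKO and ECiKO. Cx43, connexin 43, is the gap junction protein encoded by Gja1. All mice were 8 to 12 weeks old, the tissue was cortex and subventricular zone, and CD45-negative cells were sorted as CD31-positive, Glast-negative endothelial cells (EC) or as Glast-positive, CD31-negative neural stem and progenitor cells (NSPC). The sample titles name these groups CT, Glast and Vecad. Beyond this, the labels do not state the Cre lines, how deletion was induced, whether animals were pooled, or how the sorted fractions were divided between libraries.

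The subventricular zone is a wall of the lateral ventricle in which stem cells with features of astrocytes lie close to blood vessels. CXCL12 is a chemokine that holds and attracts cells through the signalling receptor CXCR4, while ACKR3 binds the same chemokine, takes it up and sends it for breakdown. KITL (stem cell factor) acts through KIT. BDNF and NTF3 are neurotrophins with NTRK2 and NTRK3 as their main receptors, and SERPINF1 (PEDF) is a secreted factor known to act on neural stem cells. Endothelins are made as precursors, cut by the protease ECE1, and bind EDNRA and EDNRB; EDN3 prefers EDNRB.

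Of 7433 deposited barcodes, 6323 showed 300 or more genes with no more than 20% of unique molecular identifiers (UMIs, each counting 1 captured RNA molecule) from mitochondria, and 6114 were given a class from marker genes that include none of the 10. The 3 libraries numbered 1 held mostly endothelial-like cells (732 in control, 453 in GlastiKO, 396 in ECiKO) and the 3 numbered 2 mostly glia (45, 66 and 21 endothelial-like cells), so that glia were compared between groups with 1 library each. Classes were tested within libraries, with library as a block. Differences of endothelial-like from astroglial-like or oligodendrocyte-like cells thus rest mainly on those 45, 66 and 21 endothelial-like cells. All 12 endothelial markers were detected in the endothelial-like cells of control replicate 1, and their summed level was 23844 to 28309 counts per 1000000 UMIs (CPM) in the 6 libraries. The class was defined by these same markers, so this describes it and is no check of it. Total UMIs ran from 1735247 to 14859187 per library. ECiKO replicate 2 stood apart in depth, with a median of 786 UMIs per cell against 2842.5 to 10859 elsewhere. Any 1 pair of libraries shared at most 1 barcode. Gja1 went against the ECiKO label in the cells that should lack it: endothelial-like cells held 93.1 and 109 CPM in control replicates 1 and 2, 144 and 131 in GlastiKO, and 235 and 209 in ECiKO. The ECiKO difference from control did not pass the test (log2 difference 1.22 ± 0.31, SE, edgeR quasi-likelihood test, adjusted p = 0.389). The 3' tags counted need not cover a deleted segment, and the cause of the difference was not tested. Group names below therefore mean "the libraries labelled" so.

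Endothelial-like cells were the main source of Cxcl12, Kitl, Edn1 and Edn3 RNA. They held 98.8% of 26217 Cxcl12 UMIs, 97.9% of 6722 Kitl UMIs, 98.9% of 2382 Edn1 UMIs and 91.8% of 537 Edn3 UMIs found in cells that passed the filters. The receptor Ednrb had the reverse distribution, with 92.5% of 3623 UMIs in astroglial-like cells. Ackr3 was divided between endothelial-like cells (60.5% of 974 UMIs) and pericyte-like cells (22.1%), and Cxcr4 between astroglial-like (45.0% of 191 UMIs) and endothelial-like cells (34.0%). These shares depend on how many cells of each class were sorted and sequenced, whereas the levels below, in CPM, are relative to the UMIs of the class.

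**Figure D1:**
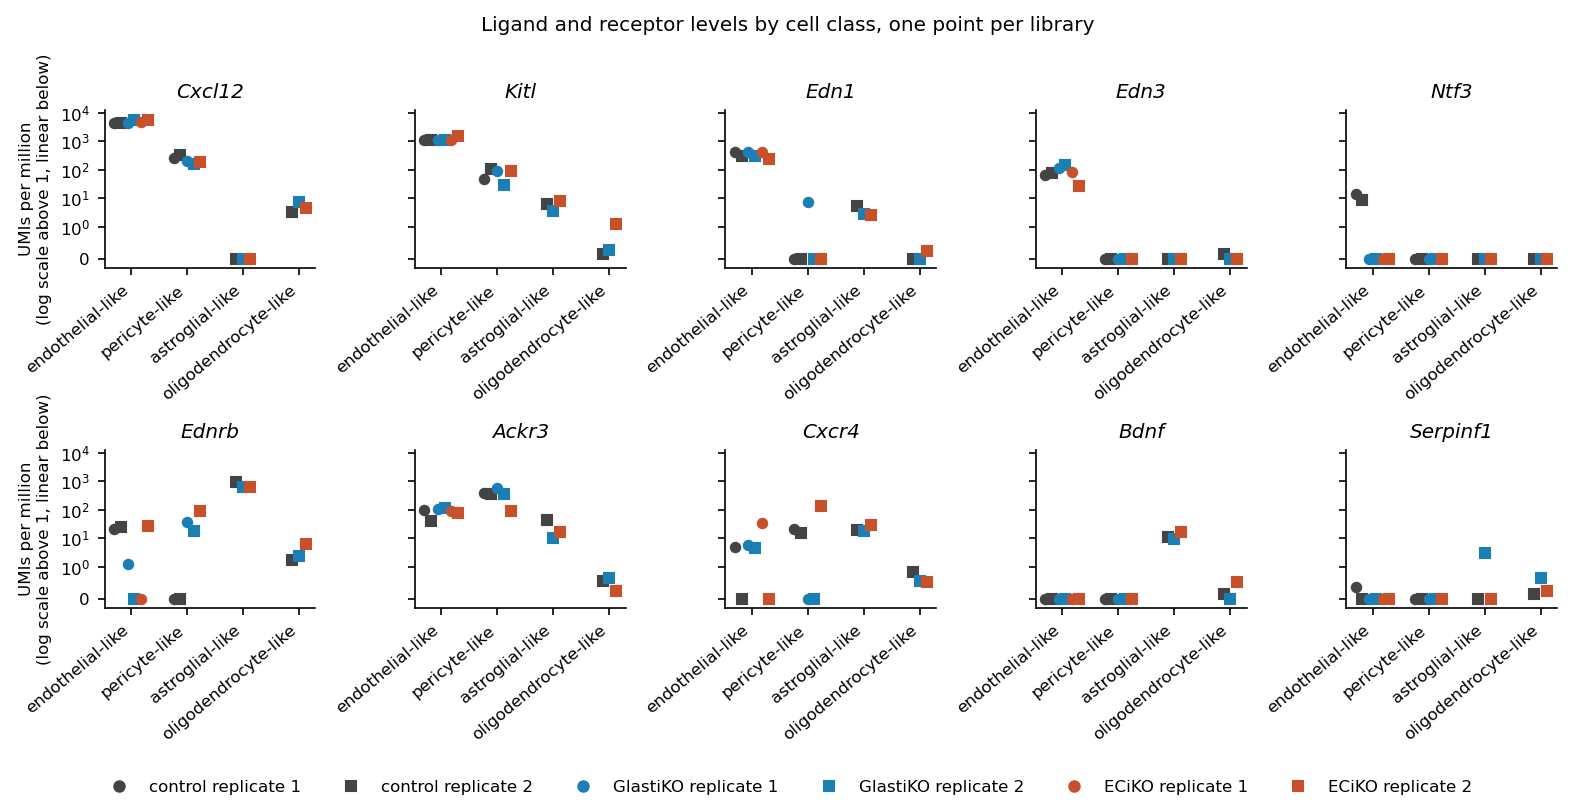
Level of each of the 10 genes (y axis, CPM of the class, logarithmic above 1 and linear below) in 4 cell classes (x axis), with 1 point per library of at least 10 such cells. Cxcl12 lies between 4167 and 5689 in all 6 endothelial-like sums and at 0 in all 3 astroglial-like sums, and Ednrb between 635 and 923 in the astroglial-like sums.

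Cxcl12 was present at 4167 and 4490 CPM in the endothelial-like cells of control replicates 1 and 2, at 4437 and 5689 in GlastiKO and at 4777 and 5572 in ECiKO. All 6 libraries lay far above every other class. In 981 astroglial-like cells no Cxcl12 UMI was counted among 4407744. The level pooled over endothelial-like cells (4444 CPM) was 6529.5-fold that of the 3 UMIs that a count of 0 allows over the class. Against pericyte-like cells, the log2 difference was 4.48 ± 0.26 (SE, edgeR quasi-likelihood test, adjusted p = 8.071e-13, 5 libraries with pericyte-like sums), and against oligodendrocyte-like cells it was 9.50 ± 0.37 (edgeR adjusted p = 1.816e-16). Over whole classes, endothelial marker UMIs per Cxcl12 UMI numbered 2.36 to 5.63 in the pericyte-like cells of 5 libraries, 1.83 to 7.11 in the oligodendrocyte-like cells of 3 libraries and 4.60 to 6.31 in endothelial-like cells. Within the cells that held Cxcl12, 15 pericyte-like cells of control replicate 1 had 36 Cxcl12 and 91 endothelial marker UMIs. The 8 such oligodendrocyte-like cells of control replicate 2 had 24 Cxcl12 UMIs and no endothelial marker UMI, and the 26 of GlastiKO replicate 2 had 78 and 3. The part of RNA from other cells in these values was not tested. In those libraries the oligodendrocyte-like cells with Il33 and without Klk6 held 24 and 58 Cxcl12 UMIs (311 and 420 cells), and those with Klk6 and without Il33 held 0 (61 and 79 cells). In ECiKO replicate 2, where the 16 oligodendrocyte-like cells with Cxcl12 also held 16 endothelial marker UMIs, the counts were 9 and 3. The remaining Cxcl12 UMIs of GlastiKO and ECiKO lay in oligodendrocyte-like cells with both genes or neither. Few cells held Cxcl12 and the Klk6 subsets were the smaller, so their count of 0 in control and GlastiKO says little.

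Kitl, the membrane-bound or shed stem cell factor, had 1122 and 1068 CPM in endothelial-like cells of control, 1141 and 1087 in GlastiKO and 1127 and 1543 in ECiKO. In pericyte-like cells its level was 74.3 ± 33.2 CPM (SD, n = 5 libraries), and in astroglial-like cells 6.09 ± 2.26 (SD, n = 3). The endothelial excess was 4.19 ± 0.26 in log2 over pericyte-like cells (edgeR adjusted p = 7.888e-13) and 7.39 ± 0.33 over astroglial-like cells (edgeR adjusted p = 1.334e-15). Among the less abundant classes, 25 neuroblast-like cells of GlastiKO replicate 2 held 8 Kitl UMIs (43.0 CPM) and 40 cycling cells of ECiKO replicate 2 held 8 (73.7).

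Edn1, the vasoconstrictor endothelin, had 404 and 303 CPM in endothelial-like cells of control, 407 and 313 in GlastiKO and 431 and 235 in ECiKO. In each group the endothelial-rich library had the higher value. Pericyte-like cells held 1 Edn1 UMI in all, astroglial-like cells 17 and oligodendrocyte-like cells 1. The log2 difference was 5.97 ± 0.39 against astroglial-like cells (edgeR adjusted p = 3.044e-13).

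Edn3, the endothelin that acts mainly through EDNRB, had a further source in fibroblast-like cells. Endothelial-like cells had 65.3 and 75.7 CPM in control, 112 and 145 in GlastiKO and 83.1 and 26.2 in ECiKO, the last from a single UMI. No Edn3 UMI was counted in astroglial-like or pericyte-like cells. The pooled endothelial level (84.6 CPM) was 124.3-fold and 14.9-fold, respectively, that of 3 UMIs in those classes. The 9 fibroblast-like cells held 34 Edn3 UMIs, 667 CPM (exact 95% Poisson interval 462 to 932), with 24 of them in 4 cells of control replicate 2. A single cell there held 17, and a single cell of ECiKO replicate 2 held 7. The same 9 cells held 28 Cxcl12 UMIs, 549 CPM (365 to 794). All such intervals cover counting error only. The folds over 3 UMIs take the higher level as measured and leave out its counting error.

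Because Cxcl12, Edn1 and Edn3 shared the endothelial-like class while differing in vessel segment, and Ackr3 crossed classes, the 250 bases before each of these starts are shown. They come from the RefSeq promoter table for GRCm38.p6, the mm10 assembly, in which all 10 genes were matched. They are written on the gene's strand, here plus, and capitals mark letters of 4 motifs searched on both strands: the TATA box (TATAAA), the motif of GATA factors (GATAA), the core of ETS factor sites (GGAAG) and the site of AP-1 (TGANTCA). In the 4 windows shown no matches overlap. Cxcl12 lies at chr6:117168535-117181367 in the annotation and its window is chr6:117168285-117168534. Edn1 lies at chr13:42301476-42307990, with the window chr13:42301226-42301475. Edn3 lies at chr2:174760619-174784042, with the window chr2:174760369-174760618. Ackr3 lies at chr1:90203980-90216751, with the window chr1:90203730-90203979.
Cxcl12: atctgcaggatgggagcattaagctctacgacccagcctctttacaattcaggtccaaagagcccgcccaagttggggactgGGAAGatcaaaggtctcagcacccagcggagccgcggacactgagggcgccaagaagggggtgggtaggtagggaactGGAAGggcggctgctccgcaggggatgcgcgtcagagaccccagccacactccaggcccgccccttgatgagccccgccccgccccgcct
Edn1: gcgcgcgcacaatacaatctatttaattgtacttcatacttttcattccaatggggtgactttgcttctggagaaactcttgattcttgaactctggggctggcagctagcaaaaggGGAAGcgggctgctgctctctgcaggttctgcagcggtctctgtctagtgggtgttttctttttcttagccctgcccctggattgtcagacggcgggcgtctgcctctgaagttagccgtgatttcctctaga
Edn3: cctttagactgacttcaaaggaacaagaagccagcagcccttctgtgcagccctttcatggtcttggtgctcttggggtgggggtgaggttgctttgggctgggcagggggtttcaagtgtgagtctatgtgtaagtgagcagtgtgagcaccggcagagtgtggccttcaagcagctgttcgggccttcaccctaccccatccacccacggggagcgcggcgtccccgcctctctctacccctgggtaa
Ackr3: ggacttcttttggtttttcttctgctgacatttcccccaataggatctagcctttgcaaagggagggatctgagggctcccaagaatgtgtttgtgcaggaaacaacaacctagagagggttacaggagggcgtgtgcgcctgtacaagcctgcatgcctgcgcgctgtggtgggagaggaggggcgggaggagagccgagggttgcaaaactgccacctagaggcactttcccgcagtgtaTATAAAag
The Cxcl12 window holds the ETS core at 2 places and is 64.4% G or C, above the median of 52.4% over all promoters in the table. The Edn1 window holds it once (50.4% G or C), and the Edn3 window none of the 4 motifs (59.2%). The Ackr3 window holds the TATA box, its first base 8 bases before the annotated start (54% G or C). Of 32851 promoter windows of this length, 64.1% hold the ETS core, 22.6% the GATA motif, 12.4% the TATA box and 6.75% the AP-1 site. These matches describe letters and not bound sites.

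The receptors divided differently. EDNRB, the receptor of EDN1 and EDN3 that astrocytes are known to carry, had 923 CPM in astroglial-like cells of control replicate 2, 635 in GlastiKO replicate 2 and 652 in ECiKO replicate 2. At least 1 Ednrb UMI was found in 74.9% of the 410 astroglial-like cells of control replicate 2, and in 46.1% of the 395 cells that could be thinned to 1000 UMIs. For comparison, endothelial-like cells of control replicate 1 had an Ednrb UMI in 3.42% of 732 cells (1.46% of 683 thinned cells), at median depths of 3753.5 and 3471.5 UMIs per cell. The log2 difference of astroglial-like over oligodendrocyte-like cells was 7.76 ± 0.44 (edgeR adjusted p = 1.534e-15), and that of endothelial-like against astroglial-like cells was -6.26 ± 0.63 (edgeR adjusted p = 9.735e-10). In 2 oligodendrocyte precursor-like cells of GlastiKO replicate 2 there were 22 Ednrb UMIs.

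Ackr3, which encodes the scavenging receptor, was highest in pericyte-like cells, with 374 CPM in control replicate 1, 369 in control replicate 2, 565 in GlastiKO replicate 1, 349 in GlastiKO replicate 2 and 93.5 in ECiKO replicate 2, the last from 2 UMIs. Endothelial-like cells had 42.0 to 112 CPM, and among these 5 libraries the 2 ranges overlapped only through ECiKO replicate 2. The 6 pericyte-like cells of ECiKO replicate 1, under the minimum of 10, held 3 UMIs (107.5 CPM), also within the endothelial range. The log2 difference of endothelial-like against pericyte-like cells was -2.02 ± 0.29 (edgeR adjusted p = 1.668e-06). Astroglial-like cells had 43.7, 10.1 and 16.3 CPM in control, GlastiKO and ECiKO. Endothelial-like cells lay above astroglial-like cells by 1.45 ± 0.42 in log2 (edgeR adjusted p = 0.004971), a call that was lost with DESeq2 (1.24, adjusted p = 0.065) and without GlastiKO replicate 2 (0.28, edgeR adjusted p = 0.685). Over alternatives that leave out 1 library the value ran from 0.28 to 2.61. The order of Ackr3 levels was pericyte-like, endothelial-like, astroglial-like and oligodendrocyte-like (0.492 ± 0.208 CPM, SD, n = 3), and the step between endothelial-like and astroglial-like cells did not hold in every alternative.

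Cxcr4, which encodes the signalling receptor of CXCL12, was rare everywhere. Astroglial-like cells had 19.4, 17.9 and 29.9 CPM in control, GlastiKO and ECiKO (36, 39 and 11 UMIs), and oligodendrocyte-like cells 0.641 ± 0.188 (SD, n = 3). The difference of astroglial-like over oligodendrocyte-like cells was 4.76 ± 0.48 in log2 (edgeR adjusted p = 2.764e-10). Endothelial-like cells lay below astroglial-like cells by the main test (log2 difference -2.36 ± 0.91, edgeR adjusted p = 0.03171), but this call was lost with no filter on low counts (edgeR adjusted p = 0.07), with no library term (0.125) and without control replicate 1, control replicate 2 or GlastiKO replicate 2 (0.105, 0.145 and 0.226). It rests mainly on the endothelial-like cells of the libraries numbered 2, which held 0, 1 and 0 Cxcr4 UMIs in control, GlastiKO and ECiKO. Pooled over their libraries, the levels were 11.15 CPM in endothelial-like and 19.51 in astroglial-like cells. In pericyte-like cells 7 UMIs were counted in all.

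The background for these counts was high, since most genes differ between cell classes. Endothelial-like against astroglial-like sums called 47.8% of 8873 genes (21.7% higher and 26.1% lower in endothelial-like cells), and of the 7 tested members 5 were higher (Cxcl12, Kitl, Edn1, Edn3 and Ackr3) and 2 lower (Cxcr4 and Ednrb). Against oligodendrocyte-like sums 54.9% were called (25.5% higher and 29.4% lower), and the same 5 members were higher, with 0 lower. Cxcr4 (2.40 ± 1.20, edgeR adjusted p = 0.0889) and Ednrb (1.50 ± 1.04, 0.231) did not pass there, and Cxcr4 did with DESeq2 (adjusted p = 0.0184) and with no library term (edgeR adjusted p = 5.625e-06). Against pericyte-like sums 40.4% were called (22.2% higher and 18.2% lower), with 4 members higher (Cxcl12, Kitl, Edn1 and Edn3) and Ackr3 lower, while Cxcr4 (edgeR adjusted p = 0.247) and Ednrb (0.546) did not pass. Astroglial-like against oligodendrocyte-like sums called 68.3% (36.3% higher and 32% lower), with 5 members higher (Ednrb, Ackr3, Cxcr4, Edn1 and Kitl) and Cxcl12 lower. That last comparison called 3223 genes higher and 2837 lower, and 3716 and 2328 with DESeq2 size factors, which moved the median log2 difference of all genes from 0.06 to 0.29. For endothelial-like against astroglial-like sums the split was 1926 higher and 2314 lower, and 1756 and 2612 with DESeq2 size factors, the median moving from -0.08 to -0.22. Bdnf, Ntf3 and Serpinf1 had too few UMIs to be tested.

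BDNF, the neurotrophin best known from neurons, was counted in astroglial-like cells only at a trace: 20, 21 and 6 UMIs in control, GlastiKO and ECiKO, or 10.8, 9.61 and 16.3 CPM. They held 94.0% of the 50 Bdnf UMIs found. Endothelial-like cells had none among 5829467 UMIs (exact 95% Poisson upper limit 0.6328 CPM). The pooled astroglial-like level was 10.7 CPM (interval 7.835 to 14.18), 20.72-fold that of the 3 UMIs that a count of 0 allows. Serpinf1 lay mostly in the 9 fibroblast-like cells, which held 71.4% of its 63 UMIs at 882 CPM (exact 95% Poisson interval 644 to 1181). Of these, 37 UMIs came from the 4 fibroblast-like cells of control replicate 2. Endothelial-like cells held 1 Serpinf1 UMI and astroglial-like cells 7. The fibroblast-like class is too small for a comparison between groups.

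Of 23 further genes of the same pathways, 14 passed the filter on low counts in the class comparison. Their levels in CPM are from sums of at least 20 cells, whereas the tests and the members' levels used at least 10. This leaves out the pericyte-like cells of control replicate 2 (13 cells) and ECiKO replicate 2 (11 cells). In endothelial-like against astroglial-like sums 5 of the 14 were higher (Ece1, Lrp6, Furin, Adm and Dpp4). The 7 lower were Ntrk2, Mif, Plxdc2, Sort1, Arrb1, Ntrk3 and Ednra. Ntrk2, the BDNF receptor, was the clearest astroglial partner, at 1303 ± 144 CPM in astroglial-like cells (SD, n = 3) and 10.4 ± 20.9 in endothelial-like cells (SD, n = 6), a log2 difference of -8.45 ± 0.57 (edgeR adjusted p = 5.396e-13). Ntrk3, the NTF3 receptor, was at 122 ± 42.9 CPM in astroglial-like cells and at 0 in endothelial-like cells of all 6 libraries. Ece1, the endothelin-converting protease, had 393 ± 45.9 CPM in endothelial-like cells (SD, n = 6), 548 ± 145 in pericyte-like cells (SD, n = 3) and 85.8 ± 23.8 in astroglial-like cells (SD, n = 3), and its excess in endothelial-like over astroglial-like cells was 1.91 ± 0.27 in log2 (edgeR adjusted p = 1.133e-06). Ednra, the other endothelin receptor, was a pericyte gene here, with 267 ± 75.7 CPM in pericyte-like cells (SD, n = 3), 13.9 ± 5.03 in astroglial-like cells (SD, n = 3) and a single UMI in endothelial-like cells. Plxdc2, described as a receptor of SERPINF1, was at 845 ± 22.8 CPM in pericyte-like cells (SD, n = 3 for each class). It was at 205.5 ± 7.2 in oligodendrocyte-like and 48.4 ± 11.9 in astroglial-like cells. Dpp4, a membrane protease that inactivates CXCL12, was at 55.2 ± 13.1 CPM in endothelial-like cells (SD, n = 6) and at 0 in astroglial-like and pericyte-like cells. Kit, the receptor of KITL, was at 0 in astroglial-like cells and at 9.77 ± 4.08 CPM in oligodendrocyte-like cells (SD, n = 3). Pericyte-like cells had 7.88 ± 13.65 Kit CPM (SD, n = 3), between 0 and 23.6. Against pericyte-like cells, 2 of the 14 partner genes were higher in endothelial-like cells (Lrp6 and Dpp4) and 5 lower (Mif, Plxdc2, Sort1, Ednra and Plxdc1). Against oligodendrocyte-like cells 5 were higher (Ece1, Arrb1, Furin, Adm and Dpp4) and 3 lower (Mif, Plxdc2 and Sort1). In astroglial-like against oligodendrocyte-like cells 7 were higher (Ntrk2, Ece1, Arrb1, Furin, Ntrk3, Adm and Ednra) and the same 3 lower.

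The genes most like each member across 18 sums of at least 20 cells (7 classes) were ranked by Pearson correlation of log2 levels, as a description over points that share libraries, depth and cell class. Cxcl12 was followed by Adgrf5 (r = 0.983), Slfn5 (0.982) and Klf2 (0.980), and Kitl by Btg3 (0.974), Slc7a1 (0.957) and Tsc22d1 (0.946). For Edn1 the leading genes were Trim47 (0.993), Pwwp2b (0.987) and Polk (0.980), and for Edn3 they were Gimap1 (0.998), Sigirr (0.997) and Gbp4 (0.996). Ackr3 was closest to Cyba (0.956), Ptp4a3 (0.932) and Ecm2 (0.929). The astroglial receptors had looser matches: Ednrb was closest to Sema4a (0.859), Prdx6 (0.845) and Lix1 (0.843), and Cxcr4 to Spred3 (0.896), Ice2 (0.824) and Aak1 (0.809).

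Within endothelium, the ligands differed along the vessel tree. Endothelial-like cells were called arterial, capillary or venous from 12 markers each, with at least 3 of them and at least 1 more than of the other segments, and the 7 library sums of at least 10 cells held 30 arterial, 650 capillary and 13 venous cells in control replicate 1, 20 arterial and 404 capillary cells in GlastiKO replicate 1, and 12 and 358 in ECiKO replicate 1. Edn1 in arterial cells was at 1002, 1110 and 476 CPM in the 3 libraries, and at 380, 361 and 425 in capillary cells. Arterial cells lay above capillary cells in all 3 libraries, least in ECiKO (log2 difference 1.17 ± 0.20, edgeR adjusted p = 1.897e-07). Edn3 was at 151, 306 and 73.3 CPM in arterial and 60.7, 97.8 and 83.8 in capillary cells, the ECiKO library going the other way on 4 arterial UMIs (log2 difference 1.20 ± 0.31, edgeR adjusted p = 0.00196). Cxcl12 was at 1734, 2299 and 2510 CPM in arterial and 4532, 4721 and 5171 in capillary cells, so that the groups of sums did not overlap (log2 difference -1.15 ± 0.20, edgeR adjusted p = 5.744e-07). This comparison called 10.2% of 3685 genes (5.29% higher and 4.91% lower in arterial cells), and of 5 tested members 2 higher and 1 lower. The venous arm under this rule was a single sum, 13 cells of control replicate 1 with 17 Cxcl12 UMIs, so its differences have no replicate check and the fit assumes for it the spread of the other sums. Venous against capillary cells called 4.86% (2.31% higher, 2.55% lower) and 1 member, Cxcl12 (log2 difference -3.92). Arterial against venous cells called 5.26% (2.85% higher, 2.42% lower) and 2 members, Cxcl12 (2.77) and Edn1 (2.01). The arterial against capillary calls depended on single libraries and settings. Without control replicate 1 no gene was called, and with at least 20 cells per sum 37 genes and no member were called, with Edn1 at an edgeR adjusted p of 0.0518. The calls of Edn1 and Edn3 were also lost without GlastiKO replicate 1 (edgeR adjusted p = 0.135 and 0.511) and with no filter on low counts (0.0718 and 0.179), and that of Edn3 with DESeq2 (adjusted p = 0.261), whereas Cxcl12 passed in these 3.

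Nearly every cell held markers of the capillary list, so a further rule, chosen after the data were seen, placed a cell by its excess of segment markers over the mean of its library and gave all 3 segments in the 3 libraries numbered 1 (67, 138 and 66 arterial, capillary and venous cells in control, 38, 89 and 49 in GlastiKO, 43, 72 and 27 in ECiKO). Cxcl12 was then at 5623, 5342 and 5494 CPM in capillary cells of control, GlastiKO and ECiKO, at 3573, 3585 and 4812 in arterial cells and at 844, 1128 and 920 in venous cells. The 3 segments did not overlap. Venous cells lay below capillary cells (log2 difference -2.46 ± 0.12, edgeR adjusted p = 1.098e-33), and the value stayed between -2.60 and -2.31 when any 1 library was left out, passing the test each time. The smaller arterial deficit against capillary cells (-0.43 ± 0.11, edgeR adjusted p = 0.00291) was lost without control replicate 1 (edgeR adjusted p = 0.128) or GlastiKO replicate 1 (0.121).

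Edn1 by this rule was at 1055, 838 and 581 CPM in arterial cells of control, GlastiKO and ECiKO, and at 232 to 433 in capillary and 317 to 361 in venous cells, so arterial cells were highest in every library. Arterial cells lay above capillary cells by 1.36 ± 0.16 in log2 (edgeR adjusted p = 1.058e-11) and above venous cells by 1.33 ± 0.17 (edgeR adjusted p = 7.162e-10). Edn3 was at 164, 251 and 120 CPM in arterial cells, at 60.5 to 71.8 in capillary and at 44.1 to 75.2 in venous cells. Its arterial excess was 1.46 ± 0.23 over capillary (edgeR adjusted p = 5.591e-07) and 1.62 ± 0.28 over venous cells (edgeR adjusted p = 3.684e-06). Both genes kept their arterial calls whichever of the 3 libraries was left out. Kitl declined from arterial (1361, 1491 and 1571 CPM) through capillary (1150, 1134 and 1086) to venous cells (830, 702 and 912), with arterial over venous cells at 0.85 ± 0.13 in log2 (edgeR adjusted p = 1.548e-07). Kitl in arterial over capillary cells (0.43 ± 0.12, edgeR adjusted p = 0.0107) was lost without GlastiKO replicate 1 (0.083) or ECiKO replicate 1 (0.129), and in venous against capillary cells (-0.43 ± 0.13, edgeR adjusted p = 0.0193) without control replicate 1 (0.156) or GlastiKO replicate 1 (0.349), while arterial over venous cells passed each time. Ackr3 passed in none of the 3 contrasts. Of 5692 genes, arterial against capillary cells called 8.84% (4.44% higher, 4.39% lower), with 3 of 5 members higher and Cxcl12 lower. Venous against capillary cells called 7.96% (4.27% higher, 3.69% lower), with Cxcl12 and Kitl lower, and arterial against venous cells 8.52% (4.23% higher, 4.29% lower), with 4 of 5 tested members higher (all except Ackr3).

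**Figure D2:**
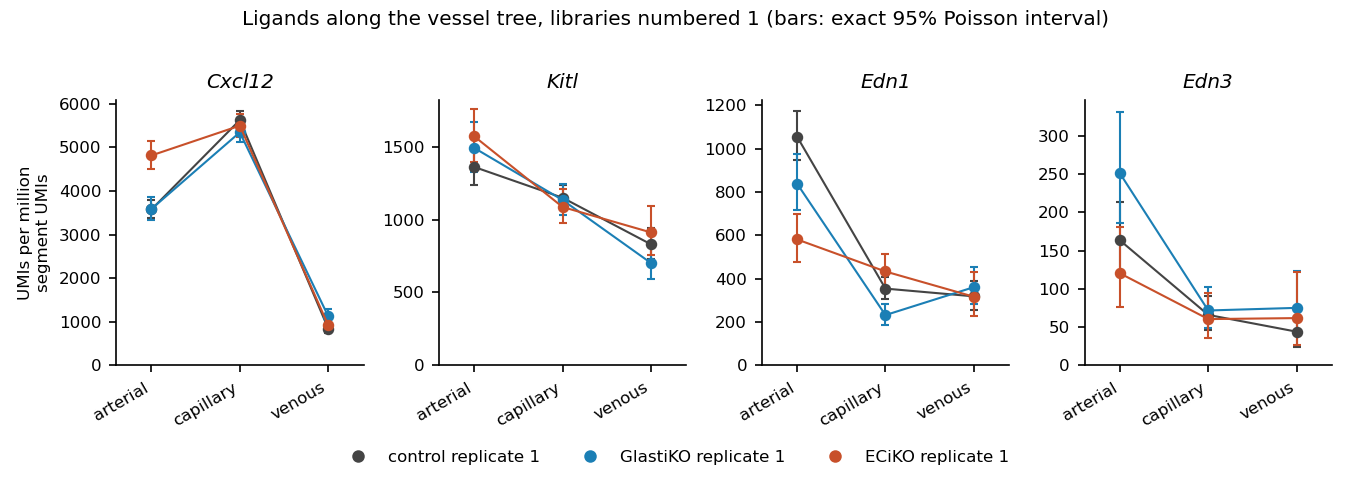
Levels of 4 ligands (y axis, CPM of the segment, with exact 95% Poisson intervals) in arterial, capillary and venous endothelial-like cells placed by marker excess (x axis), in the 3 libraries numbered 1. Cxcl12 is lowest in venous cells of all 3 libraries (844 to 1128), Kitl declines from arterial to venous cells, and Edn1 and Edn3 are highest in arterial cells.

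A small set of endothelial-like cells departed from this pattern. Cells with at least 2 of Plvap, Esm1 and Igfbp3, genes known from fenestrated and sprouting endothelium, numbered 33 in control replicate 1, 1 in control replicate 2, 1 in GlastiKO replicate 1 and none in the other libraries. In control replicate 1 they held all 38 Ntf3 UMIs of the library, in 24 of the 33 cells (209 CPM), while the other 699 endothelial-like cells held none. The only other Ntf3 UMI of the series lay in the single such cell of control replicate 2. Ednrb was at 280 CPM in the 33 cells and 2.05 in the others (51 and 5 UMIs), a ratio of 137 (exact 95% interval 54.9 to 439). Ackr3 was higher as well, at 192 and 94.3 CPM (ratio 2.04, interval 1.39 to 2.92). The ligands were lower: Cxcl12 at 654 against 4430 CPM (ratio 0.148, interval 0.122 to 0.177), Kitl at 363 against 1179 (0.308, interval 0.237 to 0.393), and Edn1 at 16.5 against 433 (0.0381, interval 0.00785 to 0.112). Edn3 was at 5.50 CPM, from 1 UMI, against 69.7. With essentially 1 library, these ratios carry counting error only and no test. Without these cells Ednrb lay below pericyte-like cells (-3.12, edgeR adjusted p = 0.0183), whereas with them it did not pass.

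**Figure D3:**
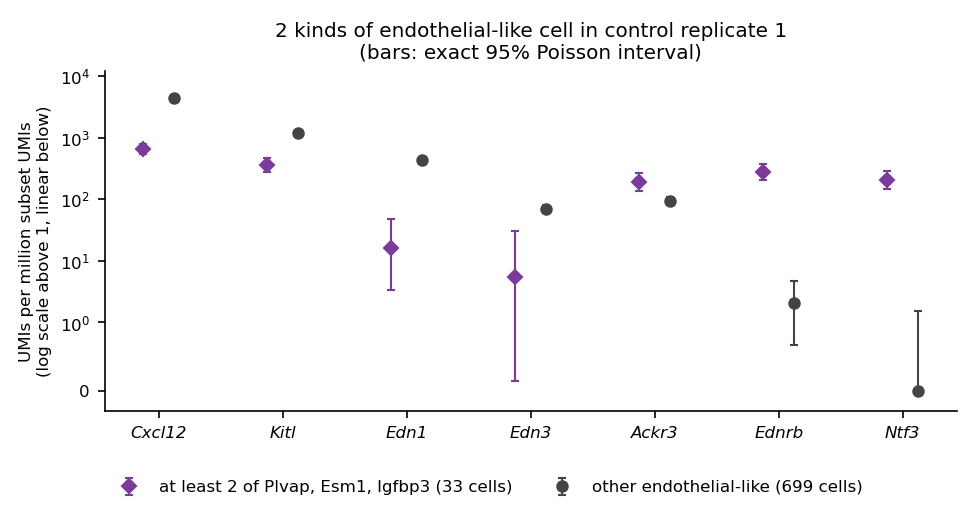
Levels of 7 members (y axis, CPM of the subset, logarithmic above 1, with exact 95% Poisson intervals) in the 33 endothelial-like cells of control replicate 1 with at least 2 of Plvap, Esm1 and Igfbp3 (diamonds) and in its other 699 endothelial-like cells (circles). Cxcl12, Kitl, Edn1 and Edn3 are lower in the 33 cells, and Ackr3, Ednrb and Ntf3 higher.

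Between the groups, endothelial-like cells could be compared over 2 libraries each. The question was whether the libraries labelled as deletions differed from control in these signals. Of the 6 members with enough UMIs, 0 passed the test in any contrast. In ECiKO against control 0.126% of 8702 genes were called (11 genes), in GlastiKO against control 0.138% (12 genes), and in ECiKO against GlastiKO 0% by edgeR (137 genes at an unadjusted p under 0.05, and 0 genes by DESeq2), with 0 of 6 members in each. All called genes were lower than in control, and none was called once the Plvap, Esm1 and Igfbp3 cells were left out. The first 2 contrasts share the control libraries. Of the partner genes, 0 of 9 tested passed in any of the 3.

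For Cxcl12, whose values per library are given above, GlastiKO replicate 1 (4437 CPM) lay within the control range of 4167 to 4490, and GlastiKO replicate 2 and both ECiKO libraries lay above it. The log2 differences from control were 0.28 ± 0.24 and 0.19 ± 0.25 (edgeR adjusted p = 1 and 0.9999). Kitl differed by 0.08 ± 0.25 and 0.18 ± 0.25, and Edn1 by 0.06 ± 0.31 and 0.04 ± 0.33. Each of these standard errors was larger than its difference or nearly as large, so the values do not show that the groups were alike. Edn3 had the highest value in GlastiKO, 112 and 145 CPM against 65.3 and 75.7 in control, ranges that do not overlap (0.91 ± 0.34, unadjusted p = 0.0145, edgeR adjusted p = 1), and the ECiKO difference was 0.18 ± 0.36. Ackr3 differed by 0.40 ± 0.34 in GlastiKO and 0.10 ± 0.37 in ECiKO, with control replicate 2 (5 UMIs) the lowest of the 6 libraries.

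Ednrb in endothelial-like cells had 56 and 3 UMIs in control replicates 1 and 2, 2 and 0 in GlastiKO and 0 and 1 in ECiKO, or 21.4, 25.2, 1.27, 0, 0 and 26.2 CPM. It did not pass (edgeR adjusted p = 0.178 for GlastiKO and 0.34 for ECiKO against control). It did pass in both with no filter on low counts (edgeR adjusted p = 0.000222 and 0.00153) and without ECiKO replicate 2 (0.0221 and 0.0188), and for GlastiKO alone with the older quasi-likelihood method (0.0195) or a fit of those 2 groups (0.0124). Of the control UMIs, 51 of 56 in replicate 1 and all 3 in replicate 2 lay in the Plvap, Esm1 and Igfbp3 cells, and without these cells the gene no longer had enough UMIs to be tested. Ntf3, whose UMIs all lay in these cells, had too few to be tested under the filter. It was called lower than in control with no filter on low counts (edgeR adjusted p = 0.00049 for GlastiKO and 0.00555 for ECiKO) and for GlastiKO without ECiKO replicate 2 (0.0352). Ntf3 enters these alternatives only through control, which held all 39 UMIs, 38 of them in replicate 1. The calls therefore repeat where the Plvap, Esm1 and Igfbp3 cells were found and are no separate result about the groups. Why such cells were found mainly in control replicate 1 was not tested.

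**Figure D4:**
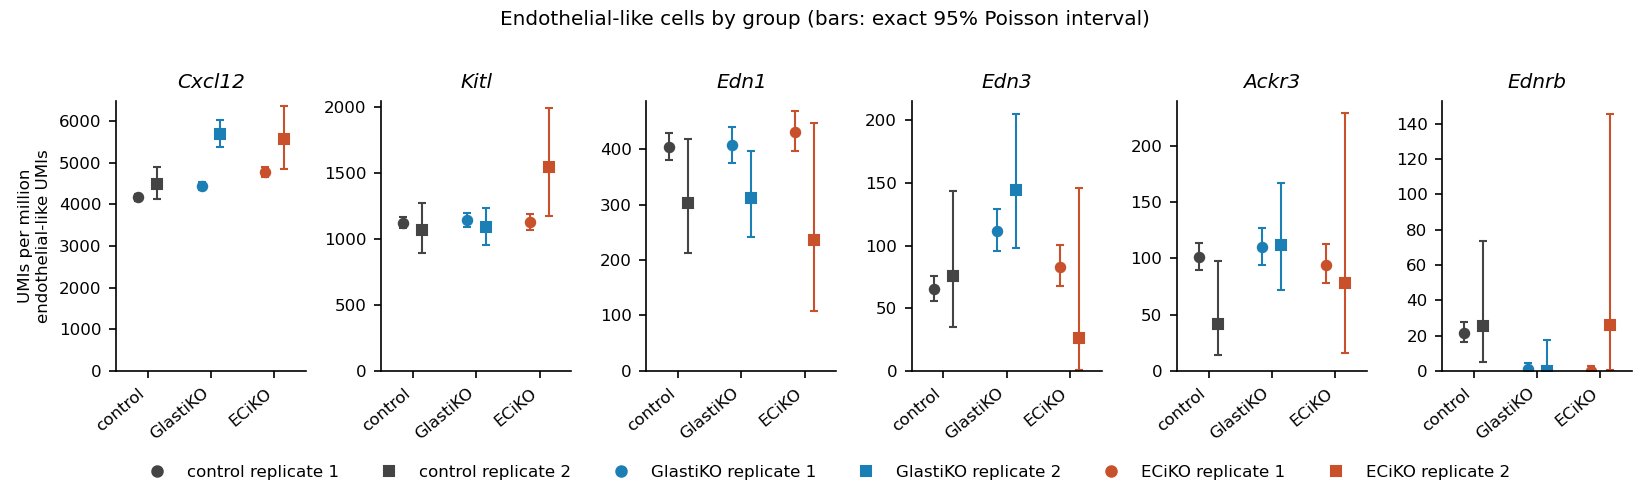
Levels of 6 members in endothelial-like cells (y axis, CPM of endothelial-like cells, with exact 95% Poisson intervals) by group (x axis), with circles for libraries numbered 1 and squares for those numbered 2. Edn3 is highest in the 2 GlastiKO libraries (112 and 145), and the libraries numbered 2, with 21 to 66 cells, have the wide intervals.

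Cxcr4 was near 0 in endothelial-like cells except in 1 library. It had 13, 0, 9, 1, 42 and 0 UMIs in control replicates 1 and 2, GlastiKO replicates 1 and 2 and ECiKO replicates 1 and 2, or 4.96, 0, 5.71, 4.67, 33.3 and 0 CPM. In ECiKO replicate 1 the 42 UMIs lay in 22 of 396 cells, and their segment depended on the rule. By the first rule 41 lay in the 358 capillary cells (36.5 CPM) and 1 in the 12 arterial cells (18.3 CPM). By marker excess 15 lay in the 43 arterial cells (78.5 CPM) and 1 each in the 72 capillary and 27 venous cells, the rest in cells that this rule left unplaced. The arterial class by marker excess held 3 Cxcr4 UMIs in 67 cells of control replicate 1 and 0 in 38 cells of GlastiKO replicate 1. Leukocytes also carry Cxcr4, and the cells had been sorted as CD45-negative. The 20 leukocyte and microglial markers together held 1 UMI in those 22 cells (10.1 CPM) beside 25.8 CPM in the other endothelial-like cells of that library, and their part in the result was not tested. ECiKO replicate 2 held none in 21 cells, where 3 UMIs would be 78.5 CPM. Cxcr4 passed for ECiKO against control only with no filter on low counts (edgeR adjusted p = 0.00153) or without ECiKO replicate 2 (0.0393), among the alternatives run.

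Astroglial-like cells could be compared only between single libraries, the 3 numbered 2, so the ratios carry counting error and no test. Gja1, the label check, was at 2544 CPM in control, 2490 in GlastiKO and 2565 in ECiKO. The GlastiKO label was thus not borne out by a clear loss of Gja1 RNA in these cells, and the reason was not tested. Ednrb was lower than in control in both, with a ratio of 0.689 (exact 95% interval 0.641 to 0.740) in GlastiKO and 0.706 (0.614 to 0.809) in ECiKO. Ackr3 was also lower, with ratios of 0.231 (0.137 to 0.373) and 0.373 (0.133 to 0.847). For Cxcr4 the ratios were 0.920 (0.569 to 1.49) and 1.54 (0.706 to 3.09), and for Bdnf 0.891 (0.460 to 1.73) and 1.51 (0.496 to 3.90), intervals that include 1.

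The 3 libraries differed in how many astroglial-like cells showed an Agt or an Lhx2 UMI, and the receptors differed between those kinds. Agt marks astrocytes of many regions outside the telencephalon, the part of the forebrain that includes the cortex, and Lhx2 is a forebrain patterning gene. Cells with an Agt and no Lhx2 UMI numbered 248 in control, 110 in GlastiKO and 60 in ECiKO, and cells with Lhx2 and no Agt numbered 56, 166 and 31. Astroglial-like cells with both or neither were left out. Finding a UMI depends on depth, a median of 3753.5, 4608 and 977 UMIs per astroglial-like cell, and the part of depth in these numbers was not tested. Ednrb was higher in the Agt cells of every library, at 1093, 744 and 910 CPM against 557, 608 and 516 in the Lhx2 cells, ratios of 1.96 (exact 95% interval 1.66 to 2.34), 1.22 (1.08 to 1.39) and 1.76 (1.29 to 2.44). Ackr3 was at 63.4, 25.8 and 37.9 CPM in Agt cells and at 3.64, 3.86 and 0 in Lhx2 cells. The lower bounds of its ratios were 3.04, 2.13 and 0.822, the last from 5 against 0 UMIs. Cxcr4 was nearly confined to Agt cells among these 2 kinds, with 32, 32 and 6 UMIs against 0, 2 and 0. The ratio in GlastiKO was 28.5 (7.27 to 245), and the lower bounds in control and ECiKO were 1.83 and 1.06.

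Within one kind of astroglia the group ratios changed. In Lhx2 cells Ednrb in GlastiKO stood at 1.09 times control (exact 95% interval 0.913 to 1.31) and in ECiKO at 0.926 (0.677 to 1.25), both intervals including 1. In Agt cells it stood at 0.680 (0.609 to 0.759) in GlastiKO and at 0.833 (0.685 to 1.00) in ECiKO. Ackr3 in Agt cells stood at 0.406 (0.217 to 0.712) in GlastiKO and at 0.598 (0.189 to 1.46) in ECiKO. So a lower level than in the control library was seen within Agt cells of GlastiKO for both receptors, and the other subset ratios of these 2 receptors had intervals that include 1. With 1 library per group, genotype and library cannot be told apart.

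**Figure D5:**
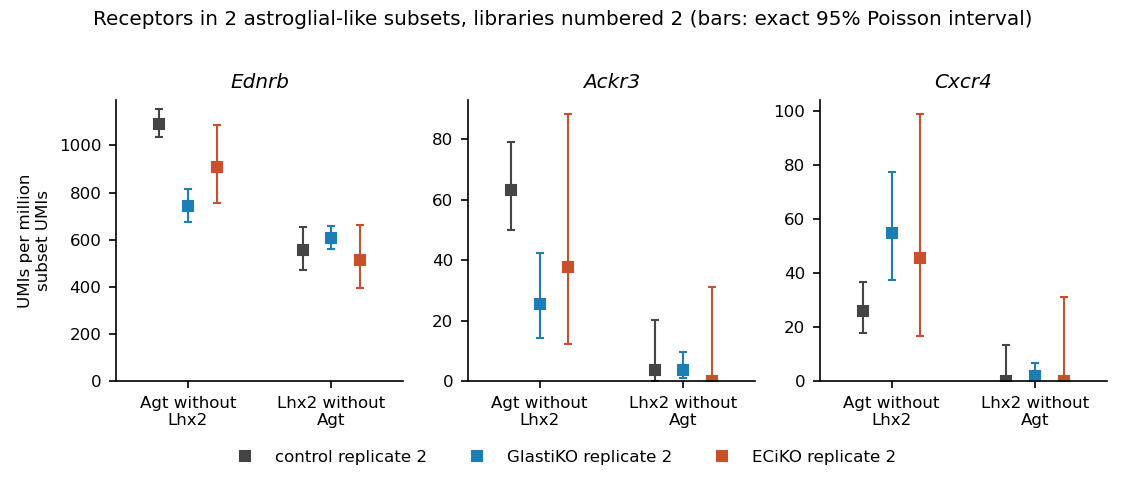
Levels of 3 receptors (y axis, CPM of the subset, with exact 95% Poisson intervals) in astroglial-like cells with Agt and without Lhx2 UMIs and in those with Lhx2 and without Agt (x axis), in the 3 libraries numbered 2. Ednrb, Ackr3 and Cxcr4 are higher in the Agt cells of all 3 libraries, and the Agt cells of control have the highest Ednrb (1093) and Ackr3 (63.4) levels. In ECiKO the Ackr3 difference rests on 5 against 0 UMIs.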

How the data were processed

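Per the labels' protocols, tissue was digested for 30 minutes at 37 degrees and sorted, libraries were made with the 10x 3' kit version 3.1, and reads were aligned with Cell Ranger 5.0.0 to mm10. Version 2.1.1 of the same tool, and Seurat 4, stand in the submitters' processing notes, which leaves the version unclear. What the authors deposited are unnormalized UMI counts for each gene in each called cell.

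The 10 members, the 23 partner genes and all marker lists were chosen with earlier results of these data known. A cell joined the class, of 15, with the most distinct markers if these were at least 3 and 2 more than of any other class; cells with over 5% haemoglobin UMIs were erythroid, and the rest (0.259 to 6.43% of a library) stayed unassigned. Classes are called "-like" because they rest on RNA. Between 0.247 and 3.08% of assigned cells per library lay at the margin. No doublet caller was run, and the margin leaves out cells with markers of 2 classes. Members' identifiers matched the annotation for all 10.

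Counts were summed per library and class (at least 10 cells) and tested with edgeR 4.0.16 (R 4.3.3, quasi-likelihood F test, filterByExpr, TMM, Benjamini-Hochberg at 0.05 over all genes tested). The endothelial fit of the groups used 6 sums of 38226 to 2619597 UMIs, group as its only term and 3 degrees of freedom (biological coefficient of variation 17.4%). The class fit used 17 sums with library as a block (8 degrees of freedom, 13.1%), and the segment fit 7 sums (2 degrees of freedom, 15.8%). Standard errors are the absolute log2 fold change over the square root of F. Single libraries were compared by count ratios with exact conditional binomial 95% intervals. In simulated counts, the endothelial ECiKO against control fit called 0 of 194 genes changed 2-fold and 152 of 193 changed 4-fold. A 2-fold change between groups could therefore go uncalled. For endothelial-like against astroglial-like sums the calls were 39 of 174 and 148 of 178. Members that passed are named in each comparison. Partner genes that passed between classes are named too, with levels for some of them only. Ntrk3, Dpp4 and Kit were chosen for description after their values were seen, as were Il33, Klk6, Agt and Lhx2 for the subsets. Alternatives were DESeq2 1.42.0 and its size factors, other filters, gates and cell minimums, and each library left out. Other software was Python 3.11.15, numpy 2.4.6, scipy 1.17.1, pandas 2.3.3, matplotlib 3.10.9 and limma 3.58.1.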

Additional observations from a re-analysis of the deposited data

Results flagged for a closer look

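Cells without a class, which enter no comparison, held UMIs of 6 members above the 3 UMIs that a count of 0 allows. There were 66 Ednrb UMIs in 26 such cells, 38 Kitl UMIs in 17 cells, 31 Ackr3 UMIs in 12 cells, 22 Cxcl12 UMIs in 11 cells, 18 Cxcr4 UMIs in 9 cells and 5 Edn3 UMIs in 4 cells. Of the Cxcr4 UMIs, 16 lay in 7 of the 28 unassigned cells of GlastiKO replicate 2, or 47.9 counts per 1000000 UMIs (CPM) there. Of the Ackr3 UMIs, 16 lay in 4 of the 6 unassigned cells of GlastiKO replicate 1. What kinds of cell these are was not tested.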

How the results depend on the processing

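Beside the leave-out alternatives, of 131 for counts of called genes and for ratios 98 stayed within 1.5 times (counts) or within the interval (ratios), 31 moved further and 2 reversed. For the members and Gja1, 552 values kept their direction and side of the threshold, 18 gained a call, 10 lost one and 13 reversed. With 1 library left out the numbers were 278, 10, 11 and 17. The causes were not tested. In the endothelial contrasts ECiKO against control, GlastiKO against control and ECiKO against GlastiKO, no filter on low counts gave 40, 39 and 3 genes. The first 2 gave 2 and 2 with DESeq2, 21 and 26 with the older quasi-likelihood method, and 0 and 0 without the Plvap, Esm1 and Igfbp3 cells (edgeR, with 62 and 112 genes at an unadjusted p under 0.05). Leaving out 1 library each gave 3 to 24, 2 to 21 and 0 to 30. With no filter, astroglial-like against oligodendrocyte-like sums called 9315 genes, and with 1 library left out 4955 to 7943.

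For arterial against capillary, venous against capillary and arterial against venous cells, the counts were 239, 37 and 43 with no filter, 175, 47 and 50 with DESeq2, and 211, 50 and 55 with a margin of 2 markers. With at least 20 cells the first gave 37. Placing cells by marker excess gave 453 for venous against capillary and 485 for arterial against venous cells, and 455 and 483 without the Plvap, Esm1 and Igfbp3 cells. With 1 library left out the 3 counts ran from 0 to 409, 86 to 248 and 92 to 262. By marker excess the 3 counts were 258, 249 and 294 without control replicate 1, 262, 240 and 296 without GlastiKO replicate 1, and 419, 318 and 397 without ECiKO replicate 1. Venous contrasts had no value without control replicate 1 or with at least 20 cells under the first rule, and the lone venous sum there is assumed to vary like the others.

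Log2 differences reversed only for members that had not passed the test. Without the Plvap, Esm1 and Igfbp3 cells Edn1 stood at -0.057 in ECiKO and -0.037 in GlastiKO against control, Ednrb at -0.79 in endothelial-like against oligodendrocyte-like cells and Ackr3 at -0.026 in arterial against venous cells. With DESeq2, Edn3 stood at 1.71 in astroglial-like against oligodendrocyte-like cells and Ackr3 at 0.024 in arterial against capillary cells, and the latter at 0.0050 without cells of very high UMI counts. With a margin of 2 markers Kitl stood at -0.11 (arterial against capillary) and Ackr3 at -0.34 (arterial against venous). By marker excess, venous against capillary cells gave -0.17 for Edn3 and 0.026 for Edn1, then -0.17 and 0.023 without the Plvap, Esm1 and Igfbp3 cells, -0.31 for Edn3 without GlastiKO replicate 1, -0.24 and 0.22 without ECiKO replicate 1, and 0.15 for Edn1 without control replicate 1. Leaving out 1 library moved the difference from control, in ECiKO, from -0.36 to 1.21 (Ackr3), -0.84 to 0.35 (Edn1) and -1.60 to 0.37 (Edn3), and in GlastiKO from -0.032 to 0.19 (Kitl) and -0.25 to 0.38 (Edn1). It moved Ednrb from -2.67 to 0.54 in endothelial-like against pericyte-like cells, and Ackr3 from -0.51 to 0.26 in arterial against capillary and from -0.12 to 0.47 in arterial against venous cells by the first rule. Astroglial-like ratios to control became 0.555 for Ednrb in ECiKO without cells of very high UMI counts. In Agt cells they were 0.833 (Ednrb, ECiKO) and 0.406 (Ackr3, GlastiKO), and in Lhx2 cells 0.926 (Ednrb, ECiKO), 1.09 (Ednrb, GlastiKO), 1.06 (Ackr3, GlastiKO) and 0 (Ackr3, ECiKO, no UMI).

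Replicate numbers are shared across groups, but deviations of same-numbered libraries correlated at only 0.0887 (control and GlastiKO), 0.0419 (control and ECiKO) and 0.0619 (GlastiKO and ECiKO) over 8702 genes, so the numbers were not taken as pairs. With the replicate number as a block, 6, 7 and 0 genes were called in the 3 endothelial contrasts and no member. Depth limits Cxcr4, Bdnf, Ntf3 and Serpinf1, which rest on few UMIs, and every value of ECiKO replicate 2 in endothelial-like cells, which rests on 38226 UMIs.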

Other observations

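Choroid plexus-like cells, epithelium that makes cerebrospinal fluid, numbered 5, 18 and 44 in the libraries numbered 2 of control, GlastiKO and ECiKO. They held few UMIs of the 10 genes: 9 and 3 Ednrb UMIs in GlastiKO and ECiKO (27.5 and 16.2 CPM), 3 Edn3 UMIs in GlastiKO, and 1, 3 and 1 Ackr3 UMIs in control, GlastiKO and ECiKO. The 40 cycling cells of ECiKO replicate 2 held 16 Ednrb UMIs (148 CPM, exact 95% Poisson interval 84.3 to 240), of which 14 lay in a single cell.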
